A study of Homo sapiens with 2 samples.

Results

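The genes of the TGF-β, activin and BMP pathways were examined in HepG2 cells, a human hepatocellular carcinoma line, under a fatty acid load with or without 9-cis-retinoic acid (9-cis-RA). The list holds 51 genes, chosen by name as ligands, receptors, SMADs, inhibitors and targets, out of 60623 gene entries in the count tables. It was drawn up with earlier results of these data known. Each of the 51 symbols matched 1 Ensembl identifier, and 45 genes reached the minimum of 10 counts over both libraries. Both groups carry the genotype label WT and were exposed to 1 mM free fatty acids (FFA), a mixture of oleic and palmitic acid bound to albumin, for 24 h. One group received no retinoid (the FFA library), and the other also received this retinoid at 10 μM for 24 h (the 9-cis-RA library). The paper's methods place the retinoid after the fatty acids, while its results call this a co-treatment, so the order is unclear. The paper states that the DMSO solvent was matched between groups. 9-cis-RA is an agonist of the RXR nuclear receptors that also activates RARs. The study asked which transcripts change when RXR-associated signaling is activated in steatotic cells.

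Each group is 1 library from poly(A) RNA, and the labels place both in the same batch. There is thus no replicate error and no p-value is given, and a difference between the cultures cannot be told apart from an effect of the treatment. The FFA library held 60821539 counted fragments and the 9-cis-RA library 57669670. Differences are log2 fold changes of the 9-cis-RA library against the FFA library, on size-factor normalized counts plus a pseudocount of 1, and each is followed by its exact 95% interval. These intervals cover counting error only and compare the libraries, not the conditions. Levels are given as TPM, computed from counts per exonic length and scaled to a common total in each library. On this scale all differences lie 0.090 higher in log2 terms than on the size-factor scale, so directions below are those of the size-factor scale. The retinoic acid hydroxylase gene CYP26A1, a check of the treatment label, had 4 counts in the FFA library against 709 with 9-cis-RA.

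The cells carried transcripts of their labelled type, but not every marker was abundant. The 6 hepatocyte and hepatoma markers (ALB, AFP, APOA1, SERPINA1, TTR and FGB) summed to 13213 TPM in the FFA library and 11062 TPM in the 9-cis-RA library, with 3 of them higher and 3 lower. Nearly all of both sums came from ALB, AFP, APOA1 and SERPINA1, which lay between 2592 and 4067 TPM in the FFA library. TTR, at 6.78 TPM, and FGB, at 28.2 TPM, were far lower in that library and add little to the sum. On the log2 scale ALB was at -0.70, AFP at -0.99, TTR at -0.27, APOA1 at 0.039, SERPINA1 at 0.036 and FGB at 0.84. The 5 stellate cell and fibroblast markers summed to 19.3 and 13.6 TPM, nearly all from ACTA2, while COL1A1, COL1A2 and LUM had at most 3 counts in either library. The 3 endothelial markers summed to 1.29 and 0.866 TPM, and the leukocyte marker PTPRC was at 0 in both. Of the 2 leukocyte markers, CD68 had 5 and 15 counts. A same-strand gene overlaps 81.6% of the exonic bases of CD68, where reads were not counted, so these counts set no limit on its level. The part of these markers in the differences below was not tested. In bulk RNA, fewer cells of a type and less RNA per cell cannot be told apart.

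TGF-β family ligands are dimers made from secreted precursors. They bring together type I and type II receptor kinases, which phosphorylate receptor SMADs. Activins and TGF-β act through SMAD2 and SMAD3 and BMPs through SMAD1, SMAD5 and SMAD9, and both sets enter the nucleus with SMAD4. Follistatins, gremlin, BAMBI, SMAD6, SMAD7, SMURF ligases and the SKI proteins restrain the signal at successive steps. In liver, TGF-β is best known as a growth inhibitor of hepatocytes and an activator of stellate cells, and BMP signals set hepcidin transcription.

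In these libraries the pathway moved by modest amounts and not as a block. The largest difference was in FSTL3, an extracellular activin antagonist, which was 2.59-fold higher with 9-cis-RA, followed by ID1, a BMP target gene, at 1.90-fold higher. Lower with 9-cis-RA by more than 1.5-fold were the coreceptor gene TGFBR3, the latent TGF-β binding protein gene LTBP1, the target gene CCN2 and the hepatic activin subunit gene INHBC. The third gene past 1.5-fold on the higher side was SMAD9. The other 38 compared genes lay within 1.5-fold.

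Of the 45 genes compared, 25 were higher and 20 lower with 9-cis-RA, and their median log2 fold change was 0.13, beside -0.020 over all 20431 genes compared. The fold threshold of the study, 1 on the log2 scale, was passed on the higher side by 1 pathway gene (FSTL3) and on the lower side by none, while 3.37% and 4.90% of all genes passed it. At 1.5-fold, 3 pathway genes were called higher and 4 lower, against 7.45% and 12.0% of all genes. The counting interval lay above 0 for 20 of the 45 and below 0 for 14, against 22.5% and 25.7% of all genes. These shares depend on depth, and the pathway genes were counted more deeply, with a median of 4392 counts over both libraries against 1045 for all genes.

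Among the 10298 genes with at least 1000 counts, a minimum chosen after seeing the data, 0.204% were above 1 and 0.660% below -1. Of the 36 pathway genes at that depth, FSTL3 alone was above 1 and none was below -1. At 1.5-fold, 2 of the 36 were higher (FSTL3 and ID1) and 3 lower (TGFBR3, CCN2 and INHBC), beside 1.00% and 3.18% of all genes at that depth. Intervals above 0 were found for 18 of the 36 and below 0 for 12, beside 34.4% and 34.7%. The median absolute log2 fold change of the 36 was 0.26, and that of all deeply counted genes was 0.14. The list was chosen with earlier results of these data known, so these shares and medians are descriptions and no test of the pathway.

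**Figure D1:**
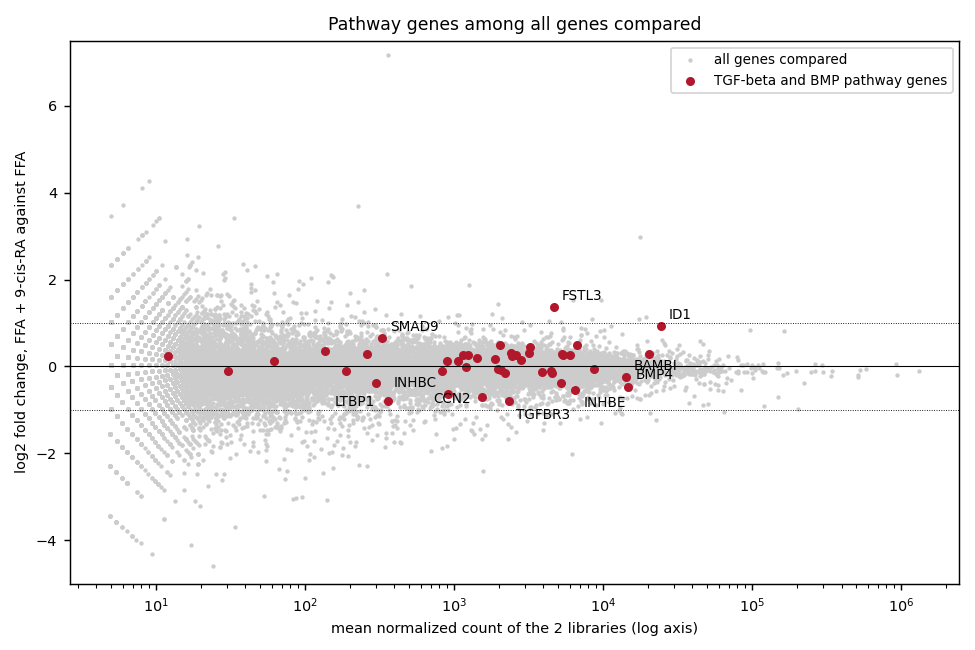
Log2 fold change of the 9-cis-RA library against the FFA library (vertical axis) by mean normalized count (horizontal, log axis) for 20431 genes in gray and 45 pathway genes in red, 1 library per group, with dotted lines at 1 and -1. FSTL3 at 1.37 lies above the upper dotted line, ID1 is at 0.92, and 38 of the 45 pathway genes lie within 1.5-fold.

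Per exonic length, a handful of genes carried most of the pathway's transcripts. The targets ID1 and ID2, the pseudoreceptor BAMBI, the ligand BMP4, the target ID3 and the activin subunit INHBE were the 6 highest in the FFA library, from 663 TPM for ID1 down to 122 TPM for INHBE. With 9-cis-RA, FSTL3 moved from 41.7 to 115 TPM and passed INHBE, which stood at 88.9 TPM. At the low end, TGFB2, LTBP4, INHBB and LTBP2 stayed under 1 TPM in both libraries. The levels of the 45 genes thus spanned from 0.0866 to 663 TPM in the FFA library.

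**Figure D2:**
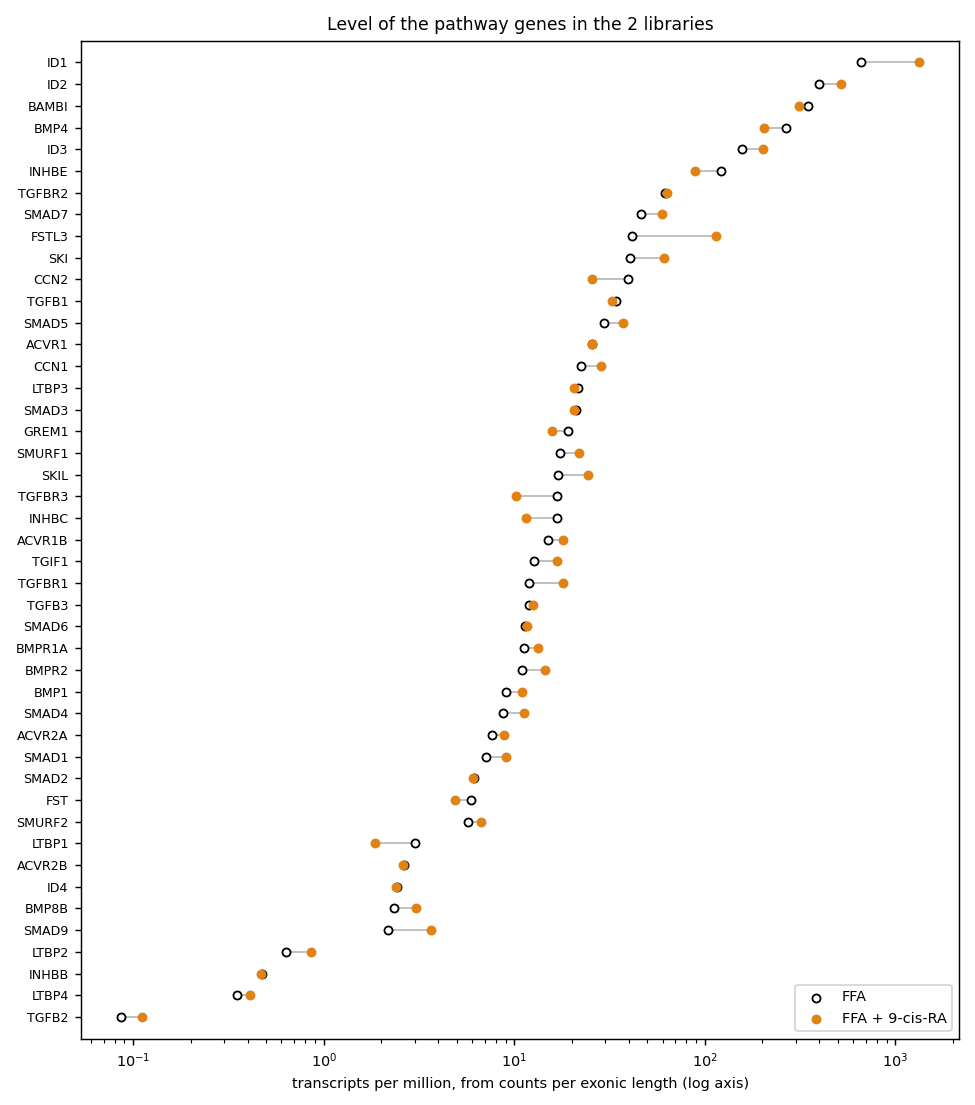
TPM of the 45 compared pathway genes (horizontal, log axis) in the FFA library (open circles) and the 9-cis-RA library (filled circles), ordered by the FFA value, with 1 library per group. The longest lines join the circles of FSTL3 (41.7 and 115 TPM) and ID1 (663 and 1339 TPM) on the higher side, followed by SMAD9 (2.16 and 3.64 TPM), and those of TGFBR3, LTBP1 and CCN2 on the lower side.

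TGFB1 was the main TGF-β ligand transcript in both libraries, with 74.0% and 72.0% of the summed TPM of the 3 ligands. It spans 41301587 to 41353922 of chromosome 19 and went from 2336 to 2056 counts with 9-cis-RA, a small difference of -0.16 (interval -0.24 to -0.07). With TPM scaling the value was -0.066 and its interval, -0.15 to 0.020, included 0. TGFB3 made up most of the rest, and its 1230 and 1197 counts gave -0.01 (interval -0.13 to 0.10), so no difference was detectable at this depth. TGFB2 had only 11 and 13 counts, with an interval from -1.01 to 1.57, and the same-strand gene TGFB2-OT1 overlaps 22.7% of its exonic bases, where reads were not counted.

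Some of the 4 latent TGF-β binding proteins tether the inactive ligand to the matrix. LTBP3 was the most abundant of the 4, with 84.3% and 86.8% of their TPM. Its 4834 and 4240 counts differed by -0.16 (interval -0.22 to -0.10). LTBP1, on chromosome 2 from 32946953 to 33399509, stood apart from it: it went from 466 to 264 counts (-0.79, interval -1.02 to -0.57), or 1.73-fold lower. LTBP2 had 121 and 151 counts and LTBP4 60 and 64, and both intervals included 0.

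The 3 TGF-β receptor genes went in different directions. TGFBR1, the type I kinase, on chromosome 9 from 99104038 to 99154192, was higher, going from 1716 to 2373 counts (0.50, interval 0.41 to 0.59). TGFBR2, the type II kinase, was the most abundant at 61.8 and 63.6 TPM, and its 9009 and 8552 counts left a value of -0.047 (interval -0.090 to -0.0046). Total-count scaling turned that sign, to 0.0017, so no direction is read for TGFBR2. TGFBR3 encodes betaglycan, a coreceptor that presents TGF-β2 and inhibin, and lies on chromosome 1 from 91680343 to 91906335. It was 1.75-fold lower, going from 3029 to 1700 counts (-0.81, interval -0.89 to -0.72). TGFBR1 had thus 12.0 TPM against 16.8 for TGFBR3 in the FFA library, and 18.0 against 10.2 with 9-cis-RA.

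In the activin branch the abundant liver subunit genes INHBE and INHBC were lower, and of the activin-binding protein genes FSTL3 was higher and FST lower. INHBE encodes the activin βE chain, which is made chiefly in liver, and INHBC the βC chain, also a liver product. The genes are neighbors on the plus strand of chromosome 12, INHBC from 57434784 to 57452062 and INHBE from 57452323 to 57459280, with 260 bases between them. INHBE went from 7809 to 5236 counts, a value of -0.55 (interval -0.60 to -0.50), and INHBC from 1126 to 713, a value of -0.63 (interval -0.77 to -0.49). INHBC was within 1.5-fold with total-count scaling (-0.582) and TPM scaling (-0.541). Nearly all activin subunit TPM came from these genes: INHBE had 87.6% and 88.1%, and INHBC 12.0% and 11.4%. INHBB had 32 and 29 counts, with an interval from -0.89 to 0.66, and INHBA, the βA chain of activin A, had 5 and 1, too few to compare.

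FSTL3 encodes a secreted follistatin-like glycoprotein that binds activins and myostatin. The gene lies on chromosome 19 from 676392 to 683392. It went from 2656 to 6745 counts (1.37, interval 1.31 to 1.44), and no other gene overlaps its exons on the same strand. FST, which encodes follistatin, the better known activin trap, went the other way at lower depth, with 344 and 260 counts and a value of -0.38 (interval -0.61 to -0.14). In the FFA library FSTL3 had 41.7 TPM and FST 5.96, and with 9-cis-RA they had 115 and 4.89. FSTL1, a more distant relative, had 3 counts and 0.

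The 3 listed activin receptor genes differed by small amounts. ACVR1B, a type I receptor, had 1791 and 1969 counts, a value of 0.16 (interval 0.07 to 0.26). The type II receptor genes ACVR2A (1037 and 1104 counts) and ACVR2B (868 and 796 counts) had intervals that included 0, from -0.0056 to 0.24 and from -0.24 to 0.04.

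BMP4 was by far the main BMP ligand transcript among those listed, with 99.1% and 98.5% of the summed TPM of BMP2, BMP4, BMP7 and BMP8B. It spans 53949736 to 53958761 of chromosome 14 and was 1.38-fold lower with 9-cis-RA, going from 17312 to 12312 counts (-0.46, interval -0.50 to -0.43). BMP8B went slightly higher, from 237 to 285 counts (0.29, interval 0.04 to 0.55), and its value is uncertain because the close paralog BMP8A can take part of its reads out of the unique count. BMP2 had 1 count in each library and BMP7 had 2. BMP1, despite its name, is a metalloproteinase that cleaves procollagen and BMP antagonists, and its 1343 and 1502 counts gave 0.19 (interval 0.08 to 0.30).

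Both compared genes of the listed BMP antagonists and BAMBI were lower alongside BMP4. In the second list described further on, the BMP trap gene CHRD was lower too (-0.40), while TWSG1, of a BMP-binding protein, was higher (0.62). GREM1, which encodes gremlin, a trap of BMP2 and BMP4, spans 32718004 to 32745106 of chromosome 15 and went from 5962 to 4508 counts (-0.38, interval -0.43 to -0.32). BAMBI, a kinase-less decoy receptor, spans 28677510 to 28682932 of chromosome 10 and went from 15705 to 12979 counts (-0.25, interval -0.28 to -0.21). NOG, the gene of noggin, was at 0 in both libraries, which with a floor of 3 counts limits its level to 0.0493 CPM without and 0.0520 CPM with 9-cis-RA.

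Receptors for BMP were similar or a little higher. BMPR2, the type II receptor, went from 2872 to 3488 counts (0.31, interval 0.24 to 0.38), and BMPR1A, the type I receptor, from 2706 to 2931 (0.14, interval 0.07 to 0.22). ACVR1, the type I receptor ALK2, had 2155 and 1993 counts with an interval from -0.17 to 0.0034, and at 25.6 and 25.7 TPM it was the most abundant of the BMP receptor genes. BMPR1B was at 0 in both libraries.

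All 3 BMP-responsive SMAD genes were higher with 9-cis-RA. SMAD9, on chromosome 13 from 36844831 to 36920765, had the largest value: its 260 and 403 counts gave 0.66 (interval 0.43 to 0.89). SMAD1 went from 1059 to 1243 counts (0.26, interval 0.14 to 0.38) and SMAD5, the most abundant of the 3 with 76.0% and 74.6% of their TPM, from 5584 to 6538 (0.26, interval 0.20 to 0.31). Both TGF-β and activin-responsive SMAD genes were slightly lower: SMAD2 had 4680 and 4262 counts, at -0.11, and SMAD3 4155 and 3713, at -0.13. On the TPM scale SMAD2 stood at 6.12 and 6.05 and SMAD3 at 21.2 and 20.6. SMAD4, the shared partner, went from 2415 to 2842 counts (0.26, interval 0.18 to 0.34). With total-count scaling SMAD2 and SMAD3 were at -0.058 and -0.085, and the interval of SMAD2 then reached 0.0020. With TPM scaling the intervals of both included 0, from -0.077 to 0.043 for SMAD2 at -0.017 and from -0.11 to 0.020 for SMAD3 at -0.044, so their lower call depends on the scaling.

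Of the 4 inhibitory SMAD and SMURF genes, 2 had intervals above 0 and 2 had intervals that included 0. SMAD7, which blocks TGF-β receptors and is itself a SMAD target, went from 4880 to 5816 counts (0.28, interval 0.23 to 0.34), whereas SMAD6, which acts mainly on BMP receptors, had 2040 and 1930 counts and an interval from -0.14 to 0.04. Of the ubiquitin ligases that degrade SMADs and receptors, SMURF1 was at 0.24 (interval 0.16 to 0.33), and SMURF2, with 864 and 929 counts, had an interval from -0.0029 to 0.27. The 3 listed nuclear corepressor genes were higher too. SKI, on chromosome 1 from 2228319 to 2310213, went from 5567 to 7746 counts (0.50, interval 0.45 to 0.55), and SKIL, on chromosome 3 from 170357678 to 170396835, from 2755 to 3692 (0.45, interval 0.38 to 0.52). TGIF1, a homeodomain corepressor of SMADs, was at 0.32 with 2188 and 2676 counts. Its paralog TGIF2, from the second list described further on, was lower and more abundant, at 77.3 and 69.2 TPM, with 6447 and 5316 counts (-0.25, interval -0.30 to -0.20). LDLRAD4, which encodes another inhibitor of TGF-β signaling, was also lower, with 900 and 597 counts (-0.56, interval -0.72 to -0.41). TGIF2 and LDLRAD4 were picked for naming after their values were seen.

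**Figure D3:**
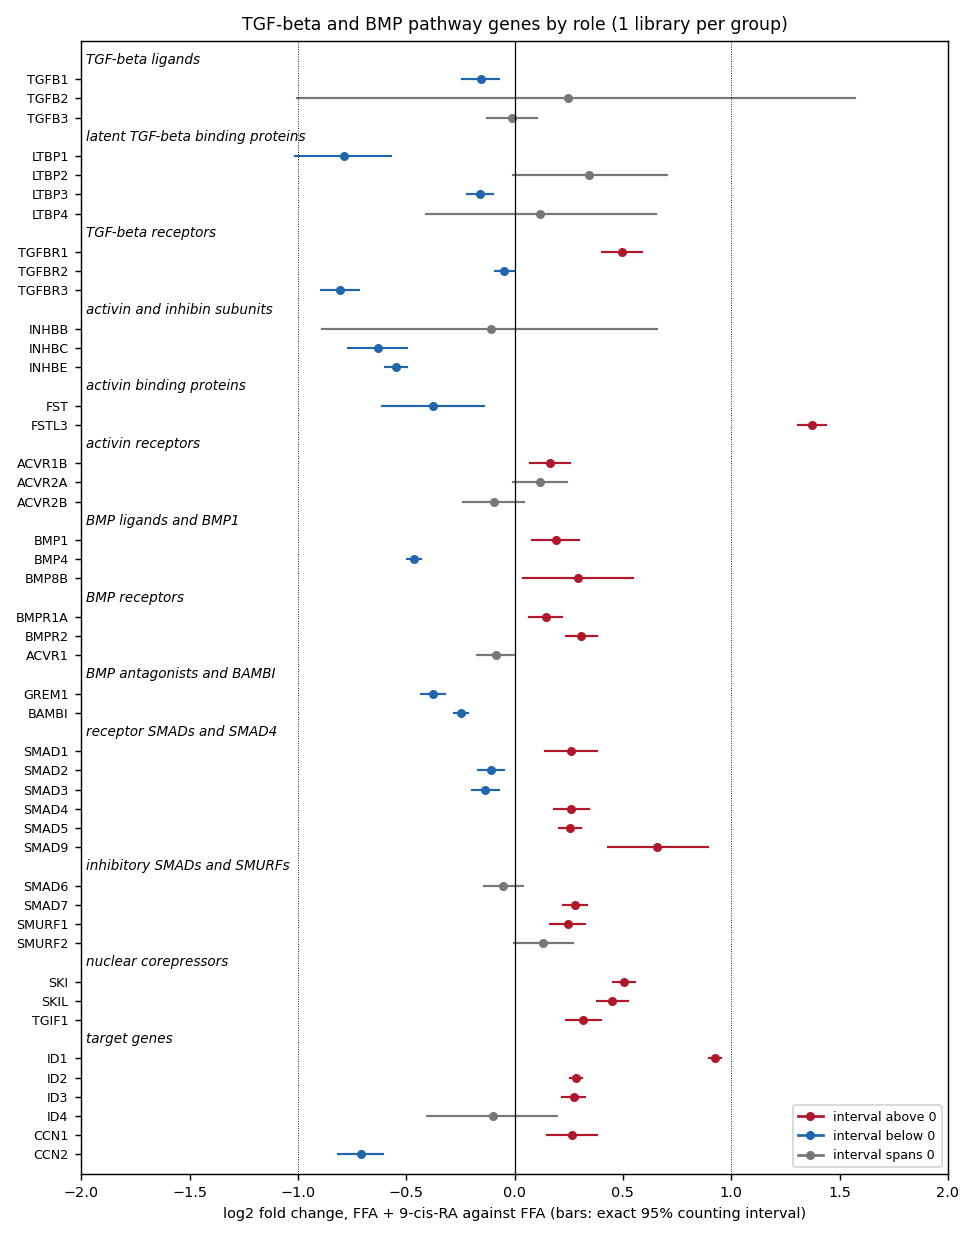
Log2 fold change (horizontal axis) of each of the 45 compared pathway genes, grouped by role, for 1 library per group. Points are values and bars are exact 95% counting intervals, red where the interval lies above 0 (20 genes), blue where it lies below 0 (14 genes) and gray where it includes 0 (11 genes). All 3 corepressor genes are red, and both compared genes of the BMP antagonist and BAMBI group are blue.

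The target genes did not share a direction. ID1, ID2 and ID3 encode helix-loop-helix proteins without a DNA-binding region, which hold back differentiation factors, and are classical BMP targets. ID1, at 31605283 to 31606515 of chromosome 20, went from 17154 to 31936 counts (0.92, interval 0.90 to 0.95). Its share of the ID family TPM went from 54.2% to 65.0%. ID2 (18565 and 22162 counts, 0.28) and ID3 (4930 and 5840 counts, 0.27) were higher by a smaller amount, and ID4, at 197 and 180 counts, had an interval from -0.40 to 0.20. The summed level of the 4 ID genes was 1222 TPM without and 2061 TPM with 9-cis-RA.

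CCN1 and CCN2 encode secreted matricellular proteins, CCN2 being the former connective tissue growth factor, a textbook TGF-β target that also answers to YAP. They differed from each other. CCN2, on chromosome 6 from 131948176 to 131951372, went from 1936 to 1160 counts, a value of -0.71 (interval -0.82 to -0.61), or 1.64-fold lower, and CCN1 from 1148 to 1354, a value of 0.27 (interval 0.15 to 0.38). CCN2 accordingly had 39.5 TPM against 22.4 for CCN1 in the FFA library, and 25.7 against 28.7 with 9-cis-RA.

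The sequence just before the first exon is shown for FSTL3 and ID1, the genes with the largest differences, and for ID3, a second ID gene, so that the motif search can be read on actual promoters. Sequences are from RefSeq (GRCh38.p14) and run 5′ to 3′ on the gene's strand, up to the base before the first exon in the count tables. They cover chr19:676142-676391 on the plus strand, chr20:31605039-31605282 on the plus strand and chr1:23559502-23559751 on the minus strand. Capitals mark a match to any of the motifs searched.

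FSTL3: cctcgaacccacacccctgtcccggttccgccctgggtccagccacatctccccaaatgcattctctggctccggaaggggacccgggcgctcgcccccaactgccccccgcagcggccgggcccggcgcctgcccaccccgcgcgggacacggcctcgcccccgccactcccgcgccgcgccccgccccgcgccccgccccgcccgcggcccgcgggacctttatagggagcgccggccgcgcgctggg

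ID1: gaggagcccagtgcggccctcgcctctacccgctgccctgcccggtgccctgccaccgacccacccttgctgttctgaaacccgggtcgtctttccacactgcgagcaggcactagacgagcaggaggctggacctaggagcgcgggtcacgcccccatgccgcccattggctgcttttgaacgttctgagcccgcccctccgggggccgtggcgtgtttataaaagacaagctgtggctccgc

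ID3: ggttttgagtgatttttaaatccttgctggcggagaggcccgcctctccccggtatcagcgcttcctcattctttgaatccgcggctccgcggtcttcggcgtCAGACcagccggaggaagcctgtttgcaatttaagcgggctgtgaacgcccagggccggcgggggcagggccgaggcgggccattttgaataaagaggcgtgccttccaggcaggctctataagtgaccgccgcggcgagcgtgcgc

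The windows searched ran from 250 bases before to 50 after each RefSeq start, on both strands, and 44 of the 51 genes had at least 1 of 82 windows. The SMAD-binding core CAGAC was in 53.7% of these and in 45.3% of all 35116 promoter windows. The GC element TGGCGCC of BMP-responsive genes was in 8.54% against 5.81%, and the nuclear receptor core AGGTCA in 12.2% against 13.8%. The DR5 form of the retinoic acid response element was searched only as an exact direct repeat of AGGTCA with 5 bases between the copies. This string was in 0 of the 82 windows and in 2 of all 35116. A string this rare cannot show whether the genes lack such elements. ID3 held CAGAC at position -147 from its start and AGGTCA at position 7, FSTL3 held TGGCGCC on the reverse strand at position 43, and the ID1 window held none of the 4. A match is a description of letters, and a window without one says nothing about variant spellings of a motif or more distant elements.

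A further 68 genes of the same pathways, listed by role, were taken in the same way, and 43 of them reached the count minimum. Their median was -0.020, with 20 higher and 23 lower. Intervals lay above 0 for 14 and below 0 for 14, and 3 genes were above 1 and 4 below -1, beside 22.5% and 25.7% of all genes for the intervals and 3.37% and 4.90% for the fold threshold. The deepest of these was SNAI2, an epithelial-mesenchymal transition factor, with 515 and 236 counts and a value of -1.09 (interval -1.33 to -0.87).

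Lower genes of this second list had various roles. THBS1, whose product thrombospondin 1 activates latent TGF-β, had 435 and 213 counts, at -0.999 (interval -1.25 to -0.76), just inside the threshold of -1, which it passed with a pseudocount of 0.1 (-1.002) and with the length trend removed (-1.06). WWP1, which encodes a ubiquitin ligase, went from 7166 to 4109 counts (-0.77, interval -0.83 to -0.72). ENG, the coreceptor endoglin, had 82 and 36 counts, at -1.14 (interval -1.77 to -0.58). LEFTY2, a NODAL antagonist with a close paralog that makes its unique count uncertain, had 58 and 27, at -1.05 (interval -1.79 to -0.39), but inside -1 with a pseudocount of 5 (-0.953). HJV, the BMP coreceptor hemojuvelin, had 13 and 2, at -2.20 (interval -5.86 to -0.53). Of the 6 compared receptor and coreceptor genes of this list, 3 were higher and 3 lower. Among the higher ones, RGMB had 1387 and 1802 counts (0.41, interval 0.30 to 0.51). NEO1 had 1309 and 1661 (0.37, interval 0.27 to 0.48). RGMB and NEO1 were picked for naming after their values were seen.

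The genes named by rule on the higher side mostly had low counts, while others with intervals above 0, such as RGMB and NEO1, were deeper. AMH, the gene of anti-Müllerian hormone, had 25 and 66 counts (1.39, interval 0.74 to 2.15). CDKN2B, a cell cycle inhibitor induced by TGF-β, had 51 and 109 (1.11, interval 0.63 to 1.63), and ACVR1C, the type I receptor ALK7, 76 and 158 (1.07, interval 0.68 to 1.498). TWSG1, a BMP-binding protein, was deeper, at 508 and 768 counts (0.62, interval 0.46 to 0.79). HAMP, the hepcidin gene and a BMP target, had 87 and 141 counts (0.72, interval 0.33 to 1.13).

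Other targets of the second list did not follow a shared direction either. TGFBI, an extracellular matrix protein gene induced by TGF-β, had 14606 and 15940 counts, a value of 0.15, and JUNB, an AP-1 subunit gene, had 1489 and 1115, a value of -0.39. CHRD, the gene of the BMP trap chordin, was at -0.40 with 6074 and 4513 counts, beside GREM1 at -0.38. These 3 genes are named as examples chosen after their values were seen. Of the 25 genes not compared, 15 were at 0 in both libraries, including BMP5, BMP10 and GDF2.

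**Figure D4:**
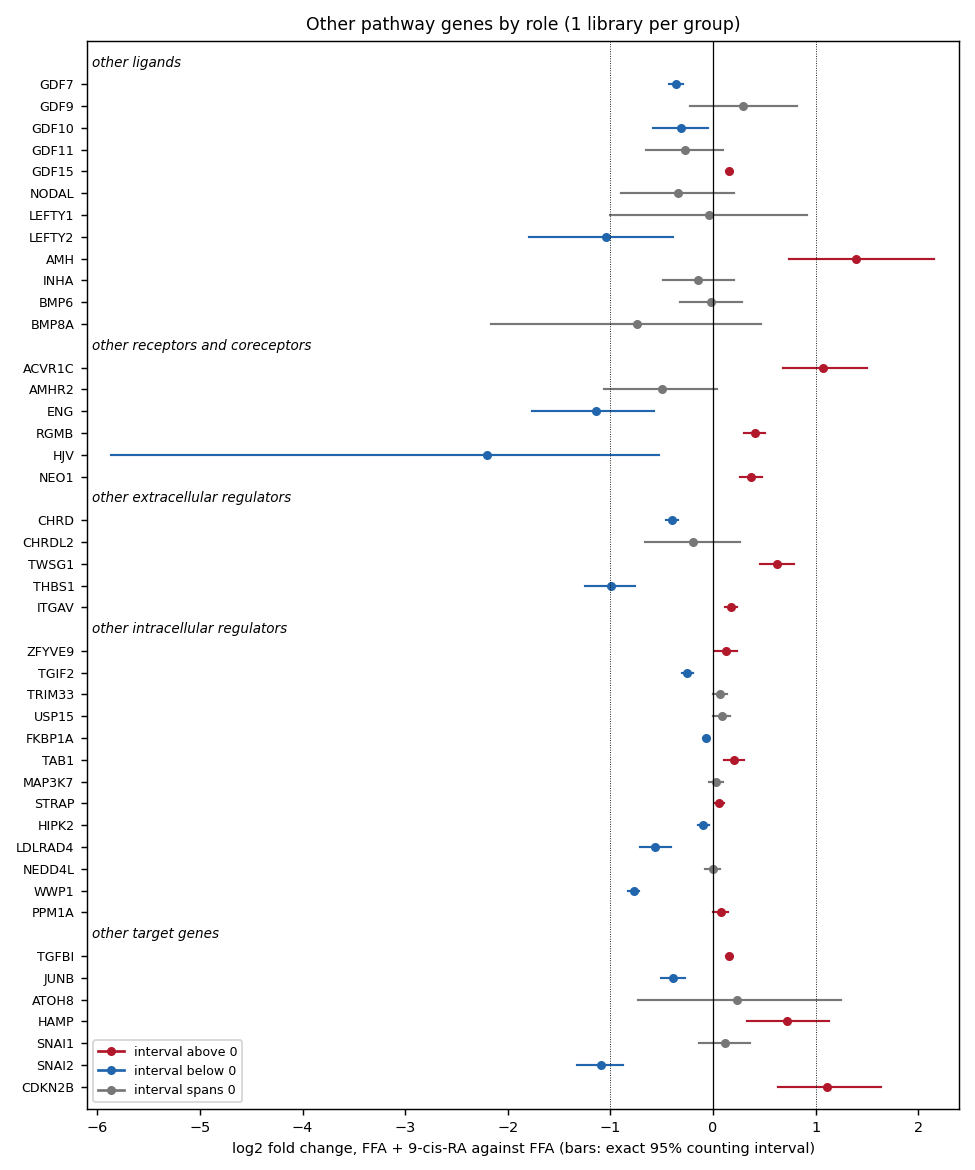
Log2 fold change (horizontal axis) of the 43 compared genes of the second pathway list, grouped by role, for 1 library per group. Points are values and bars are exact 95% counting intervals, red above 0 (14 genes), blue below 0 (14 genes) and gray where they include 0 (15 genes), and the bars of HJV and AMH are wide because their counts were low.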

How the data were processed

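RNA sequencing data of 2 HepG2 libraries, 1 per group, were used. The authors deposited unnormalized fragment counts for each gene, made with featureCounts version 2.0.1. Per the file headers, read pairs with both ends mapped were counted on the reverse strand (setting 2) with a fragment length check. Multi-mapping reads and reads shared by several genes were not counted, which lowers paralogs and overlapping genes. The build is GRCh38 per the submitters' processing notes, which also name DESeq2. The aligner is not given in the sources used here.

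Symbols were found for 60295 of 60623 identifiers. Counts were divided by DESeq2 (version 1.42.0) size factors, 1.01 for FFA and 0.990 for FFA + 9-cis-RA, and genes whose counts summed to 10 or more were compared after adding a pseudocount of 1, which understates differences of low genes. Exact 95% Clopper-Pearson intervals of each gene's share of counts cover counting error only, and floors are 3 counts. PCR duplicates without molecular identifiers are not independent molecules. No model can be fitted with 1 library per group, so no p-value is given. Alternatives were edgeR (version 4.0.16) TMM factors, total counts, TPM scaling, pseudocounts of 0.1 and 5, other count minimums, and removal of loess trends (span 0.3) on gene length and expression. TPM scaling and the minimum of 1000 counts were chosen after seeing the data. R 4.3.3, Python 3.11.15, scipy 1.17.1 and statsmodels 0.14.6 were used, and the steps were tested on simulated data.

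Genes with full values were, by rule, those past 1 or -1, the 8 highest and 8 lowest by the interval bound nearest to 0 and the most abundant of each role, and for the second list those past 1 or -1 with an interval without 0 and the 5 highest and 5 lowest. The members and lists were chosen with earlier results of these data known. One gene of the second list is not reported here. Proteomic, reporter and staining experiments were not analysed here.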

Additional observations from a re-analysis of the deposited data

How the results depend on the processing

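Of 540 values of single genes under an alternative, 498 lay inside the gene's counting interval, 40 moved past it and 2 changed sign although the interval had excluded 0. Both of these were in TGFBR2, at 0.0017 with total-count scaling and 0.043 with TPM scaling. A count minimum only selects genes, so the 56, 54 and 38 values under minimums of 1, 50 and 1000 could not move. Under TPM scaling 24 values moved, 1 changed sign and 31 stayed inside. With the length trend removed 12 moved and 44 stayed inside. Among genes whose interval included 0, TGFB3 changed sign with TMM, total-count and TPM scaling, and SMAD6 and ACVR1 with TPM scaling. With TPM scaling 2 pathway genes were above 1 (FSTL3 and ID1) and 5 were higher by more than 1.5-fold, while those lower by more than 1.5-fold went from 4 to 3, since INHBC was at -0.541. Total-count scaling also left 3, with INHBC at -0.582, and the 4 became 6 without a count minimum. With 1000 counts 2 were higher and 3 lower by this fold, and with the length trend removed 2 were above 1 (the same genes, ID1 at 1.00). Without a count minimum 2 genes were below -1, INHBA and FSTL1, which have at most 5 counts in a library. The shift of all genes was 0.020 on the log2 scale with TMM, 0.049 with total counts and 0.090 with TPM scaling, and the pathway genes split into 26 higher and 19 lower, 27 and 18, and 29 and 16. The median of the pathway genes ran from 0.070 with the length trend removed to 0.22 under TPM scaling. It stayed between the median of the genes' lower interval bounds (-0.0074) and that of their upper bounds (0.27). That range is not the counting error of a median. Intervals below 0 came to include 0 for TGFB1, SMAD2, SMAD3 and TGFBR2 with TPM scaling, for SMAD2 and TGFBR2 with total counts and for TGFBR2 with TMM, and the interval above 0 of BMPR1A did so with the length trend removed. Other intervals came to exclude 0. Those of SMURF2, ACVR2A and LTBP2 lay above 0 with TMM and total counts, where 23 did. Those of ACVR1, ACVR2B and SMAD6 lay below 0 with the length trend removed, where 17 did. With the expression trend removed LTBP2 lay above 0 and ACVR1 and SMAD6 below. In the second list LEFTY2 was inside -1 with a pseudocount of 5 (-0.953), the expression trend removed (-0.980) and TPM scaling (-0.960), and THBS1 was below -1 with a pseudocount of 0.1 (-1.002) and the length trend removed (-1.06). No paired analysis was possible because each group has 1 library, so neither could a replicate be left out. The shallow genes TGFB2, INHBB and LTBP4 had intervals wide enough to hold differences in either direction.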
